A study of Mus musculus with 4 samples.

Results

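The nuclear-encoded subunits of the respiratory chain and ATP synthase were followed across leukocyte classes and the 4 libraries of the series. They were taken by symbol, as the genes that start with Ndufa, Ndufb, Ndufc, Ndufs, Ndufv, Uqcr, Cox4i, Cox5, Cox6, Cox7, Cox8 or Atp5, without symbols that hold -ps, and 86 of the 16308 genes of the count tables met this rule. By complex there were 36 subunits of complex I, 8 complex I assembly factors (the Ndufaf genes, which the prefix also takes in), 8 genes of complex III, 18 of complex IV and 16 of complex V. Ndufa4 and Ndufa4l2 were counted with complex IV, where the Ndufa4 protein is found despite its name. Cox7b2 and Cox8c were not analysed here. The study sorted CD45+ leukocytes from the small-intestinal muscularis of mice after intestinal manipulation, a surgical handling of the gut that inflames its muscle layer, and sequenced single cells by a droplet method that counts unique molecular identifiers (UMIs) at the 3' end of transcripts. There was 1 library for each genotype, WT or CCR2 KO, at each of 24 h and 72 h after the surgery. WT mice were C57BL/6J, CCR2 KO mice carried the targeted allele of strain B6.129S4-Ccr2tm1Ifc/J in all their cells, and each library pooled cells of several female mice of 12 weeks of age. All groups had undergone the surgery, so no library shows the unmanipulated gut, and the missing receptor and the 129 origin of its allele cannot be told apart. With 1 library per group no test between groups was possible. Values below are given with 95% intervals, which cover counting error only and neither the spread between mice nor between libraries, and in all lists of 4 values the 24 h libraries precede the 72 h libraries, and within each time WT precedes CCR2 KO.

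Complex I takes electrons from NADH and complex III passes them to cytochrome c, from which complex IV hands them to oxygen. The 3 complexes pump protons across the inner mitochondrial membrane, and complex V uses the gradient to make ATP. Most subunits are encoded in the nucleus and a smaller number in mitochondrial DNA, so that each complex except complex II is assembled from both. Macrophages (Mφ) of different activation states are known to differ in their use of this pathway, and neutrophils are known to hold few mitochondria and to rely largely on glycolysis.

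The transcription factors NRF1, the ETS family (with NRF2, also called GABP) and YY1 are known to act on promoters of this gene group. Their motifs were looked up as letters in the window from 250 bases before to 50 bases after each start in the RefSeq promoter table of build GRCm38.p6, on both strands: GCGCATGC or GCGCACGC for NRF1, CCGGAAG for ETS and AAGATGGCG for YY1. The first NRF1 form overlaps its own reverse complement, so a palindromic stretch is matched on both strands at once. Of the 86 members, 69 had an entry. NRF1 letters were present in 14 of them (20.3%, against 6.08% of all 27025 genes in the table), ETS letters in 16 (23.2% against 9.93%) and YY1 letters in 8 (11.6% against 1.64%), and 31 members (44.9% against 15.9%) held at least 1 of the motifs. A match of letters is a description of the window and not a bound site, and the absence of a match says only that these letters do not occur in it. Members without an entry included Ndufs1, Ndufa2, Ndufb9, Ndufa4l2, Ndufaf6, Uqcrc2, Uqcrb, Uqcrq, Cox4i1, Cox4i2, Cox6a2, Cox6c, Atp5a1, Atp5f1, Atp5s and Atp5o.1. The 150 bases before the RefSeq start are printed for 8 members on which the results below turn, 4 with motif letters in the printed stretch and 4 without a match in the window, each read 5′ to 3′ along the gene's own strand, with the NRF1 or ETS letters in capitals. The stretches are Atp5k at chr5:108434400-108434549 (minus strand), Atp5g2 at chr15:102671048-102671197 (minus strand), Cox6a1 at chr5:115348959-115349108 (minus strand), Uqcrh at chr4:116075071-116075220 (minus strand), Ndufa5 at chr6:24527691-24527840 (minus strand), Ndufc2 at chr7:97399853-97400002 (plus strand), Cox7a2 at chr9:79759854-79760003 (minus strand) and Cox7a2l at chr17:83514334-83514483 (minus strand). The RefSeq start lies 1305 bases from the start annotated in GENCODE for Atp5g2 and 2997 bases for Cox7a2l, and 323 bases or less for the other 6 genes.
Atp5k: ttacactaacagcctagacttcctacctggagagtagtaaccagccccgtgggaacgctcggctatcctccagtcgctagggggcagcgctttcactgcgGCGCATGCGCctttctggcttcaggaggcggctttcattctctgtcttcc
Atp5g2: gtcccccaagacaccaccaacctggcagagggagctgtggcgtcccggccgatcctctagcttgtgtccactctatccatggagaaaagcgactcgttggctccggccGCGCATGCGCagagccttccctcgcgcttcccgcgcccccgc
Cox6a1: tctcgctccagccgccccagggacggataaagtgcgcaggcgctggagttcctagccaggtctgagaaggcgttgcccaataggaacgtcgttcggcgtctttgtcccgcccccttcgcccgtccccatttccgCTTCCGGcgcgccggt
Uqcrh: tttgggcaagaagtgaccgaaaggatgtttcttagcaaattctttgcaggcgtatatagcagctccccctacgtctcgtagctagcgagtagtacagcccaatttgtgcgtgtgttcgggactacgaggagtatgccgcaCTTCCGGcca
Ndufa5: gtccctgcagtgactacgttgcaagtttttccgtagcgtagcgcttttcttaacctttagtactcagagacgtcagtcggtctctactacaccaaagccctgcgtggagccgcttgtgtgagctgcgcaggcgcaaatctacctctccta
Ndufc2: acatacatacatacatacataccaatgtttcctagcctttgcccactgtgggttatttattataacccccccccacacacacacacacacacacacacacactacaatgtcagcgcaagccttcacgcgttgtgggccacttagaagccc
Cox7a2: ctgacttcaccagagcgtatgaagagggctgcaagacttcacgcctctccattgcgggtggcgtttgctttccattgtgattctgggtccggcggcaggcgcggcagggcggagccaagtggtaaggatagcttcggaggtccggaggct
Cox7a2l: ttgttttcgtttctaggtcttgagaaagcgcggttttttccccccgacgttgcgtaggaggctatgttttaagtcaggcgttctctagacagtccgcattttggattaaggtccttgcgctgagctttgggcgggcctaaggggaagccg

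The libraries held 1674, 1774, 1315 and 1048 cells with 21206308, 10436694, 16600493 and 9736725 UMIs. Cells were assigned by marker genes to monocyte/Mφ-like (1261, 202, 871 and 140 cells), dendritic cell-like (30, 47, 91 and 89), T/NK/ILC-like lymphoid (21, 111, 80 and 156), B cell-like (5, 30, 11 and 10) and neutrophil-like (297, 1244, 184 and 515) classes, so 5395 of 5811 cells had one of these classes. A class was used in a library where it had at least 20 cells, which left 5369 cells behind the class values. The 8 monocyte/Mφ markers were all at 20 CPM (counts per 1000000 UMIs of the class) or more in monocyte/Mφ-like cells of every library, and the 9 neutrophil markers in neutrophil-like cells. These markers set the classes, so their presence follows from the assignment, and the level of 20 CPM does not separate the classes by itself. In dendritic cell-like cells 7, 6, 8 and 6 of the monocyte/Mφ markers reached it, and in neutrophil-like cells 6, 6, 5 and 5. Their sum was 11960 to 22760 CPM in monocyte/Mφ-like cells and at most 2242 CPM in the other classes used. Median depth was 14645, 16204, 14020 and 14187 UMIs per monocyte/Mφ-like cell but 2049, 2929.5, 2449.5 and 3442 per neutrophil-like cell. Ccr2 itself had 757, 93.7, 1073 and 82.7 CPM in monocyte/Mφ-like cells, low in both CCR2 KO libraries. Only 4 barcodes occurred in more than 1 library.

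Every one of the 86 members had at least 1 UMI in the series. Because each transcript is counted at its 3' end, levels were not divided by gene length, and levels of different genes also carry how well each 3' end is captured. The highest members by the mean CPM over the classes were Cox8a (967 CPM), Cox4i1 (672) and Cox5a (475) in complex IV, which are nuclear subunits that surround its mitochondrially encoded core. In complex V they were Atp5e (727 CPM; the epsilon subunit of the F1 part), Atp5l (575; subunit g) and Atp5h (503; subunit d of the peripheral stalk). In complex III they were the hinge protein gene Uqcrh (420 CPM), Uqcrb (285) and Uqcrq (276). The complex I subunits were led by Ndufa13 (345 CPM), Ndufa7 (252) and Ndufa2 (249), and the assembly factors by Ndufaf8, Ndufaf3 and Ndufaf4. In monocyte/Mφ-like cells Ndufaf8 was at 91.6, 91.4, 62.4 and 86.3 CPM, Ndufaf3 at 42.3, 37.4, 26.0 and 23.4 CPM and Ndufaf4 at 34.3, 38.3, 19.1 and 20.7 CPM.

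Summed over all members, the level in monocyte/Mφ-like cells was 21196 CPM (21130 to 21261) in WT 24 h, 19672 (19526 to 19820) in CCR2 KO 24 h, 17290 (17217 to 17363) in WT 72 h and 21983 (21786 to 22180) in CCR2 KO 72 h. Dendritic cell-like cells had 21477, 20991, 20452 and 22598 CPM, and lymphoid cells 20884, 20825, 19800 and 21429 CPM. The 3 classes therefore lay close together, with dendritic cell-like and lymphoid sums between 97.5% and 118% of the monocyte/Mφ-like sum of the same library. Neutrophil-like cells stood apart at 24 h, where WT had 6405 CPM (6223 to 6592) and CCR2 KO had 7485 (7399 to 7572), and were nearer at 72 h, with 15307 (14952 to 15668) and 15113 (14944 to 15284). B cell-like cells could be summed only in CCR2 KO 24 h, at 15510 CPM (14909 to 16130), which is 78.8% of the monocyte/Mφ-like sum there, and 27 of 74 members were at least 1.5-fold lower, beside 32.0% of all genes tested, a share not far from theirs. A CPM value is a share of a class's UMIs. A neutrophil-like cell also held far fewer UMIs, so the members' UMIs per cell were 15.7, 23.4, 38.5 and 59.3 there, beside 320.6, 341.1, 247.6 and 342.0 per monocyte/Mφ-like cell.

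**Figure D1:**
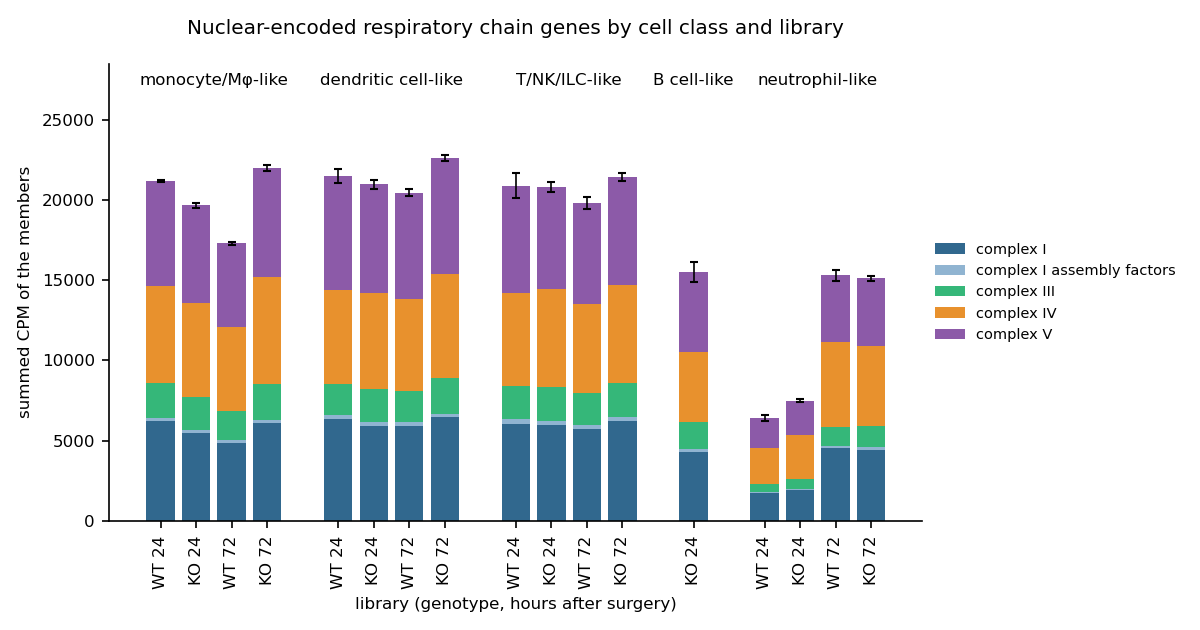
Summed CPM of the members of complexes I, III, IV and V in each cell class and library with at least 20 cells; each bar is 1 class in 1 library. The neutrophil-like bars at 24 h (6405 and 7485 CPM in all) are the lowest, and those at 72 h (15307 and 15113) lie closer to the monocyte/Mφ-like bars (17290 and 21983).

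In single cells, too, the neutrophil-like median lay below the monocyte/Mφ-like median of the same library, most so at 24 h. The median share of a cell's UMIs that came from the members was 2.10%, 1.83%, 1.64% and 1.98% for monocyte/Mφ-like cells, whereas neutrophil-like cells had 0.643%, 0.716%, 1.5% and 1.68%. At 72 h neutrophil-like cells were widely spread, and their upper part lay above that of monocyte/Mφ-like cells, except for the upper quartile in CCR2 KO. In WT 72 h their upper quartile was 2.14% against 1.9% and their 90th percentile 2.71% against 2.19%. In CCR2 KO 72 h these were 2.33% against 2.35% and 2.84% against 2.59%. After each cell had been thinned at random to 1000 UMIs, with shallower cells left out, a monocyte/Mφ-like cell had a median of 21, 18, 17 and 20 member UMIs, whereas a neutrophil-like cell had 6, 7, 15 and 17. Monocyte/Mφ genes that the gate did not use, which gauge the RNA of other cells in a droplet, were seen in neutrophil-like cells at 1.27%, 0.760%, 0.733% and 0.599% of their monocyte/Mφ-like level, while the members were at 30.2%, 38.1%, 88.5% and 68.8%.

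Neutrophil-like cells were compared with monocyte/Mφ-like cells within each library. A gene was counted as past the fold where it differed at least 1.5-fold, had a mean of at least 20 CPM in the 2 profiles and at least 30 UMIs in both together, and 73 or 74 of the 86 members could be compared in each library. At 24 h nearly all of these members were lower in neutrophil-like cells, 69 of 73 in WT (49.5% of all genes tested were lower) and 68 of 73 in CCR2 KO (45.8%). At 72 h fewer were, 27 of 73 in WT (30.6%) and 43 of 74 in CCR2 KO (37.2%), and 7 members in WT (30.3% of all genes) and 4 in CCR2 KO (25.4%) were higher. The summed log2 ratio was -1.73 (-1.77 to -1.68), -1.39 (-1.41 to -1.37), -0.18 (-0.21 to -0.14) and -0.54 (-0.56 to -0.52), and its mean over the libraries was -0.96. The median member was at -1.99, -1.83, -0.42 and -0.79, with medians of -0.57, -0.39, 0.02 and -0.20 over all genes tested. Those medians are no different with the one member at 0 UMIs (Ndufa5 in WT 24 h) set to the limit of 3 UMIs, which is still below the median. Under TMM scaling, which moved every gene up by 0.36 on average in this comparison, the mean was -0.60.

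The complexes differed in how far they were lower. At 24 h complex III had 549 against 2143 CPM in WT, a log2 ratio of -1.97 (-2.11 to -1.82), and complex I had 1715 against 6198 CPM, a ratio of -1.85 (-1.93 to -1.77). Complex IV was the least lower at that time, with 2203 against 6074 CPM (-1.46, -1.53 to -1.39) in WT, while CCR2 KO had 2790 against 5861 CPM (-1.07, -1.10 to -1.04). At 72 h in WT, complexes IV and I were near the monocyte/Mφ-like level, at 5313 against 5246 CPM (0.02, -0.04 to 0.08) and 4530 against 4854 CPM (-0.10, -0.16 to -0.04), while complex III was at 1183 against 1832 CPM (-0.63, -0.76 to -0.51). At 72 h in CCR2 KO all complexes were lower, and the sums were 4438, 1292, 4978 and 4238 CPM for complexes I, III, IV and V against 6075, 2282, 6647 and 6781 CPM.

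**Figure D2:**
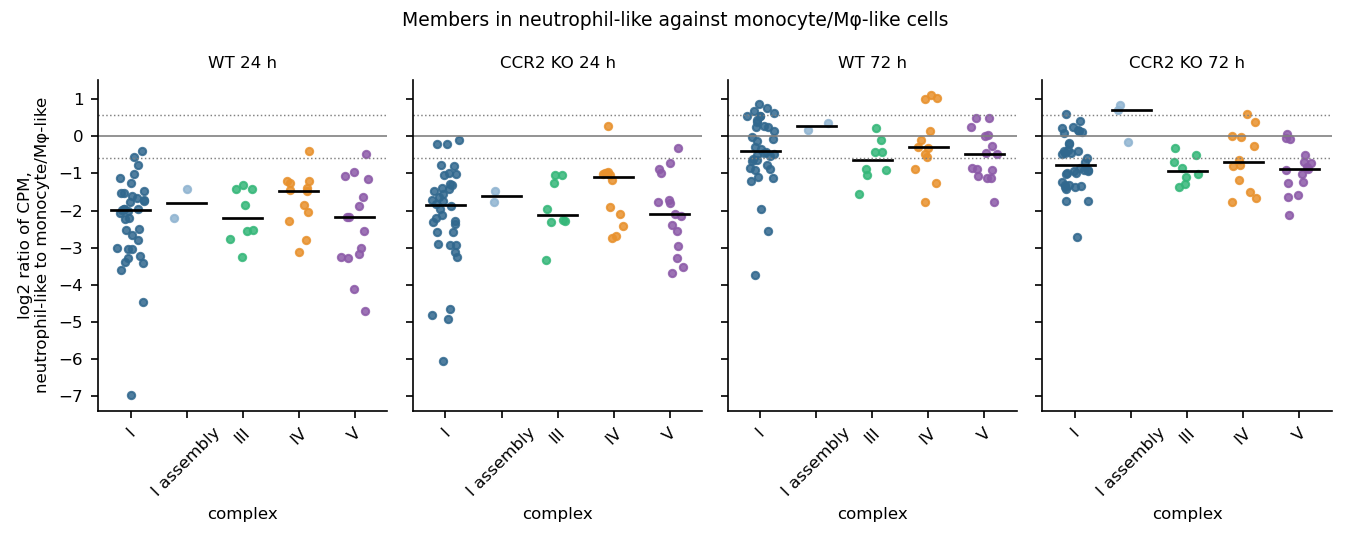
Log2 ratio of CPM, neutrophil-like over monocyte/Mφ-like cells, with 1 point per library for each member that could be compared, by complex. The horizontal line marks equal levels. At 24 h nearly all points lie below 0 (medians -1.99 and -1.83), and at 72 h the cloud moves toward 0 (medians -0.42 and -0.79) while Ndufa5 is lowest in the 3 libraries where neutrophil-like cells held its UMIs; its WT 24 h point, at 0 UMIs, is placed by the pseudocount.

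Some members were nearly absent from neutrophil-like cells. Ndufa5, an accessory subunit of complex I (chr6:24518666-24528013 in GRCm38), had 86.7, 111, 71.8 and 115 CPM in monocyte/Mφ-like cells. In neutrophil-like cells it had 0 UMIs in WT 24 h, an interval that reaches 5.07 CPM, and 1.54 CPM (0.566 to 3.36), 4.33 CPM (0.524 to 15.6) and 17.3 CPM (12.1 to 24.1) in the other libraries, the second of these from 2 UMIs. Its log2 ratio was the lowest of the members that could be compared in the 3 libraries where it had UMIs, at -6.06 (-7.63 to -5.04), -3.73 (-7.10 to -2.19) and -2.72 (-3.29 to -2.22), and these intervals overlap that of the next member. In WT 24 h it has no rank, since the interval allows ratios up to -4.09.

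Ndufc2, an accessory subunit of the membrane arm of complex I (chr7:97400003-97407802), had 258, 215, 234 and 220 CPM in monocyte/Mφ-like and 11, 6.94, 38.9 and 65.8 CPM in neutrophil-like cells, for a mean log2 ratio of -3.42. Ndufa9, an accessory subunit beside the quinone-binding part of complex I, had 74.5, 61.4, 54.0 and 71.6 CPM against 5.50, 2.31, 28.1 and 21.3 CPM (mean -2.72). Atp5g2, one of the 3 genes for the c subunit that forms the rotor ring of complex V, had 460, 413, 482 and 492 CPM against 26.1, 35.7, 141 and 164 CPM (mean -2.75). For these 3 genes every neutrophil-like value was below every monocyte/Mφ-like value.

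At the other end, Cox8a, the smallest nuclear subunit of complex IV (chr19:7215153-7217616), was about as abundant in neutrophil-like as in monocyte/Mφ-like cells or more so. It had 891, 891, 795 and 895 CPM in monocyte/Mφ-like cells and 682, 1074, 1620 and 1357 CPM in neutrophil-like cells, so it was lower in WT 24 h alone, and its mean log2 ratio was 0.38. Ndufb9 (mean 0.12), Ndufa7 (0.09) and Ndufa3 (-0.01), all accessory subunits of complex I, were also close to equal. Ndufb9 had 282, 227, 192 and 256 CPM against 191, 211, 350 and 305 CPM, so it was lower at 24 h and higher at 72 h in neutrophil-like cells. Cox7a2, the common isoform of complex IV subunit 7a, was higher in neutrophil-like cells of WT 72 h, at 577 against 268 CPM (log2 ratio 1.11, 0.92 to 1.29), and Cox6a1 at 428 against 213 CPM (1.01, 0.79 to 1.22).

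Within neutrophil-like cells the members were higher at 72 h than at 24 h. Between the WT libraries 61 of 65 members were past the fold upward (40.6% of all genes tested) and the summed log2 ratio was 1.26 (1.20 to 1.31), and between the CCR2 KO libraries 68 of 71 (33.6%) and 1.01 (0.99 to 1.04). The median over all genes tested was 0.41 and 0.30. TMM scaling lowered every gene by 0.56 and 0.54 in these comparisons and left sums of 0.69 and 0.47. The c subunit genes were among the furthest, with Atp5g1 at 17.9 CPM in WT 24 h and 151 in WT 72 h (log2 ratio 3.04, 2.21 to 4.06) and Atp5g2 at 26.1 and 141 CPM (2.40, 1.67 to 3.25). Ndufb5, an accessory subunit of complex I, had 19.3 and 123 CPM in these libraries (2.64, 1.82 to 3.64). In CCR2 KO the furthest were Ndufa11, at 4.63 and 49.5 CPM (3.39, 2.69 to 4.23), Ndufc2, at 6.94 and 65.8 CPM (3.23, 2.64 to 3.90), and Atp5g2 (2.19, 1.91 to 2.49). The least different were Ndufa12 (0.42), Atp5f1 (0.45) and Ndufa3 (0.47) in WT and Cox8a (0.34), Ndufb9 (0.53) and Ndufs8 (0.53) in CCR2 KO. Between genotypes the sums differed by 0.22 (0.18 to 0.27) at 24 h and by -0.02 (-0.06 to 0.02) at 72 h, CCR2 KO over WT.

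This difference between the times moved with the makeup of the neutrophil-like class. The cells were clustered without the member genes, and 1 of the 20 clusters was led by Siglecf, the gene of a lectin best known from eosinophils. It held 10, 39, 99 and 327 neutrophil-like cells, that is 3.37%, 3.14%, 53.8% and 63.5% of the class. The members summed to 15798 CPM (14994 to 16634), 22574 (21947 to 23215) and 22208 (21922 to 22497) in this cluster at 24 h in CCR2 KO and at 72 h in WT and CCR2 KO (WT 24 h had under 20 such cells), and to 6234 (6052 to 6420), 7285 (7199 to 7371), 8864 (8495 to 9245) and 7645 (7473 to 7820) in the other neutrophil-like cells. At 72 h, 57 of 61 members were higher in the Siglecf-led cluster than in the other clusters in WT (43.1% of all genes tested) and 69 of 73 in CCR2 KO (61.7%), with summed log2 ratios of 1.35 and 1.54. The median member was at 1.51 and 1.86, with medians of 0.43 and 0.90 over all genes tested. So genes in general were shifted upward there too, and TMM scaling was not applied to this comparison. Without the Siglecf-led cluster the difference between 72 h and 24 h was 0.51 in WT, with 21 of 49 members higher (20.7% of all genes), and 0.07 in CCR2 KO, with 9 of 62 higher (9.63%).

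The Siglecf-led cluster had neutrophil markers and hardly any of the eosinophil markers besides Siglecf. Its cells had 405, 718 and 565 CPM of Siglecf, while Ccr3 was at 0, 4.60 and 0.97 CPM and Il5ra and Prg2 were at 0 in all 3 libraries. Csf3r, the receptor for the neutrophil growth factor G-CSF, was at 1662, 999 and 1337 CPM and S100a8, which encodes part of calprotectin, at 14460, 7330 and 9604 CPM. All these genes are on the marker lists that classed the cells, so their levels follow in part from that assignment. In WT 72 h the Cxcr2-led and Retnlg-led clusters had more, with Csf3r at 2096 and 1749 CPM and S100a8 at 20340 and 75040. In CCR2 KO 72 h these clusters again had more, but the Asprv1-led cluster had less Csf3r (1097 CPM). At 24 h in CCR2 KO the other clusters lay on both sides of these levels. Cytosolic ribosomal protein genes were higher in the Siglecf-led cluster, at 40812, 53330 and 57660 CPM against 14951, 16648, 22415 and 21237 CPM in the other neutrophil-like cells. Their part in the members' sums was not tested.

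**Figure D3:**
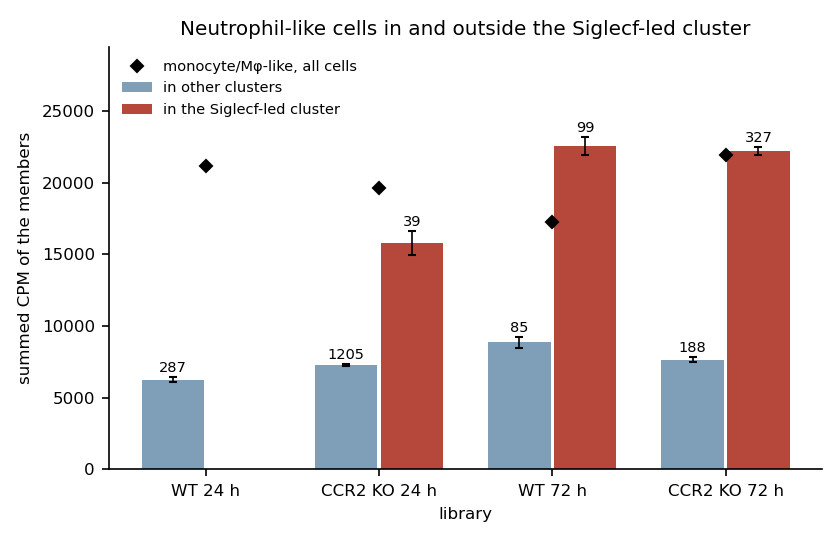
Summed CPM of the members in neutrophil-like cells inside and outside the Siglecf-led cluster, by library, with 95% counting intervals; groups under 20 cells are left out. The cluster's cells lie at 15798 to 22574 CPM and the other neutrophil-like cells at 6234 to 8864 CPM.

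The c subunit genes were again far apart inside and outside the cluster. Atp5g1 was at 299 and 231 CPM inside and 20.4 and 24.4 CPM outside in WT 72 h and CCR2 KO 72 h, and Atp5g2 at 235 and 298 against 57.1 and 22.4 CPM. Cox7a2 was at 980 and 952 CPM inside and 220 and 210 outside. Its relative Cox7a2l did not follow, with 129 and 132 CPM inside and 143 and 108 outside. Cox8a was at 2080 and 1891 CPM inside, the highest level of any member shown here, and at 1212 and 796 CPM outside.

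In monocyte/Mφ-like cells the comparisons between libraries were smaller. At 24 h CCR2 KO was below WT by a summed log2 ratio of -0.11 (-0.12 to -0.10), which was -0.20 under TMM scaling, -0.19 with cells thinned to 1000 UMIs and -0.38 in cells of 2000 to 8000 UMIs, and 0 of 74 members were past the fold upward (4.87% of all genes) or downward (4.76%). Of the 74, 58 (78.4%) lay below 0 without reaching the fold, beside 59.0% of all genes tested. The lowest were the complex I core subunits Ndufs3 (119 CPM in WT and 79.7 in CCR2 KO, -0.57), Ndufv1 (72.3 and 49.4, -0.55), which holds the NADH site, and Ndufs1 (49.1 and 35.7, -0.45). The highest were Atp5k (105 and 155 CPM, 0.57), the e subunit of complex V, Ndufa5 (0.36) and Ndufa3 (0.35).

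At 72 h the CCR2 KO value was above WT, with a summed log2 ratio of 0.35 (0.33 to 0.36) that became 0.08 under TMM scaling, which lowers every gene by 0.27 here. Past the fold were 20 of 73 members upward (14.3% of all genes) and 0 downward (6.96%), 9 of complex I, 2 of complex III, 4 of complex IV and 5 of complex V. Under TMM scaling 4 members were past it upward and 1 downward, so most of the 20 calls were lost there. Atp5k stood out at 75.3 against 240 CPM (1.67, 1.51 to 1.83), followed by Atp5g3 at 190 against 386 CPM (1.03, 0.91 to 1.14) and Ndufa3 at 97.7 against 184 CPM (0.91, 0.74 to 1.07). The others past the fold were Atp5g1, Atp5f1 and Atp5a1 of complex V, Cox7c, Ndufa4, Cox6a1 and Cox7a2 of complex IV, Uqcr10 and Uqcr11 of complex III, and Ndufb8, Ndufa2, Ndufb6, Ndufa5, Ndufab1, Ndufb2, Ndufs1 and Ndufc1 of complex I. The lowest members were Cox7a2l (-0.46, -0.58 to -0.35), Uqcrh (-0.16) and Ndufaf3 (-0.14). Atp5k and Ndufa3 were also above WT at 72 h in CCR2 KO cells of the other classes, with log2 ratios of 1.14 and 1.01 in dendritic cell-like, 1.09 and 0.72 in lymphoid and 0.81 and 0.71 in neutrophil-like cells.

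Between the times, WT monocyte/Mφ-like cells were lower at 72 h by a log2 ratio of -0.29 (-0.30 to -0.29), with 15 of 74 members past the fold downward, close to the 17.2% of all genes, and 1 upward, against 13.9%. The furthest downward were Atp5g1 (481 CPM at 24 h and 208 at 72 h, -1.21), Ndufb6 (179 and 80.6, -1.15) and Ndufa12 (183 and 98.6, -0.89), and upward Cox7a2l (1.61), Uqcrh (0.53) and Ndufa6 (0.22). In CCR2 KO the sum was higher at 72 h by 0.16 (0.14 to 0.18) in CPM and lower under TMM scaling, at -0.10, so its direction depends on the scaling. There 7 of 74 members were past the fold upward (20.4% of all genes) and 2 downward (11.2%), so fewer than among all genes in either direction, and under TMM scaling 2 were upward and 5 downward. Cox7a2l (1.43), Ndufs1 (0.94) and Ndufb11 (0.78) were the furthest upward, and Ndufaf4 (-0.88), Ndufaf3 (-0.67) and Atp5g1 (-0.48) downward.

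**Figure D4:**
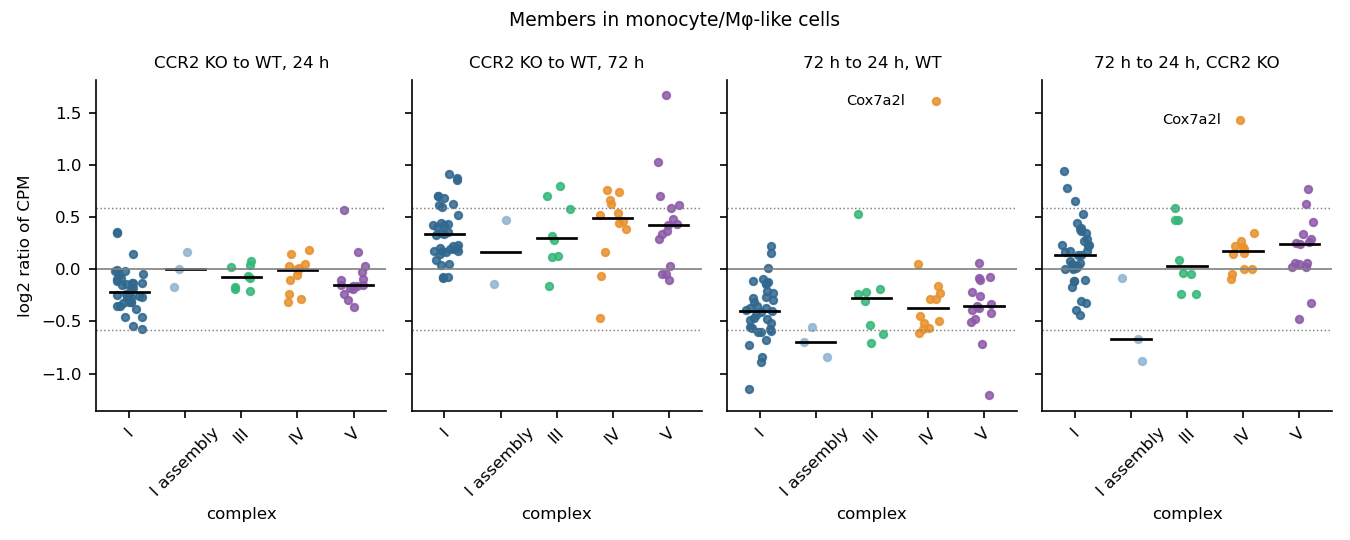
Log2 ratio of CPM in monocyte/Mφ-like cells for each member in 4 comparisons between libraries, with 1 point per member. CCR2 KO lies slightly below WT at 24 h (sum -0.11) and above it at 72 h (0.35, or 0.08 under TMM scaling), and Cox7a2l lies far above the other members at 72 h in both genotypes (1.61 and 1.43), where the sums were -0.29 in WT and 0.16 in CCR2 KO (-0.10 under TMM scaling).

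The makeup of the monocyte/Mφ-like class differed between the libraries too. Of the WT 72 h cells 47.9% were in a cluster whose leading genes began with the fibroblast genes Col3a1, Col1a1 and Dcn and went on to Apoe, Ms4a7 and Igf1, and the other libraries had 9 such cells or fewer. These cells had 24890 CPM of the monocyte/Mφ markers, above the 20900 CPM of the other WT 72 h cells, and 86.8 CPM of the non-immune markers in all, with Col3a1 at 0.859 CPM. The fibroblast genes led the cluster through 19 of its 455 cells that were classed as non-immune and did not enter the values here, since 1163 of its 1169 Col3a1 UMIs lay in those cells and 5 in its monocyte/Mφ-like cells. Because the leading genes mark another cell type, the libraries were also compared cluster by cluster. The members summed to 15729 CPM (15627 to 15831) in the Col3a1-led cluster. Without it and without clusters of another class, the log2 ratio between CCR2 KO and WT was -0.11 at 24 h and 0.24 at 72 h, and that between 72 h and 24 h was -0.21 in WT and 0.14 in CCR2 KO.

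Within single clusters the genotypes differed unevenly. In the cluster led by Gm9733, Ms4a4c and Plac8, which also had Ccr2 among its leading genes, the members were at 22466 CPM in WT 24 h and 22447 in CCR2 KO 24 h, a log2 ratio of -0.0012 (-0.02 to 0.02). In the cluster led by Fabp4 and Spp1 they were at 20786 and 18073 CPM (-0.20, -0.22 to -0.18). The third cluster compared at 24 h, led by Lilra5 and Mmp13 with Cx3cr1 among its leading genes, went the other way, with 18626 CPM in its 31 WT cells against 20257 in its 51 CCR2 KO cells (0.12, 0.08 to 0.16). At 72 h the cluster led by Cxcl13 and Prg4 had 17525 CPM for WT against 17618 for CCR2 KO (0.01, -0.05 to 0.07). These were 151 WT cells with a median of 12990 UMIs but 28 CCR2 KO cells with a median of 2562.5. Genotype and depth therefore cannot be told apart in this pair. The Lilra5-led cluster had 16378 and 22148 CPM (0.44, 0.40 to 0.47), from 52 and 73 cells with medians of 10904.5 and 15136 UMIs. In the Lilra5-led cluster, the only one compared at both times, CCR2 KO was thus above WT at each. That last cluster held 52.1% of the CCR2 KO 72 h cells of the class and 5.97% of the WT 72 h cells. The number of dividing cells in the class also differed, and how they were spread over the clusters was not examined. By their gene score 58 of the 140 CCR2 KO cells but 24 of the 871 WT cells were dividing at 72 h. Their members were at 23568 and 20183 CPM. Among cells that were not dividing the values were 20669 CPM (20412 to 20929) and 17174 CPM (17100 to 17249), a log2 ratio of 0.27. Atp5k was higher in CCR2 KO in both clusters compared at 72 h, by 1.68 and 1.62, and so was Atp5g3, by 1.05 and 1.29. At 24 h Atp5k was higher in CCR2 KO in each cluster compared, by 0.65, 0.34 and 0.70. Atp5g3 was at -0.06, -0.15 and 0.02 there.

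Of the members tested in monocyte/Mφ-like cells, the largest difference between the times was that of Cox7a2l (chr17:83501918-83517330). It is a relative of subunit 7a that has been described as a factor for supercomplexes of complexes III and IV. RNA alone was counted here, so nothing is shown on the protein or on supercomplexes in these mice. The Cox7a2l level in monocyte/Mφ-like cells was 153 CPM (148 to 159), 126 (114 to 138), 469 (457 to 481) and 340 (316 to 365). Both 72 h libraries were above both 24 h libraries and WT was above CCR2 KO at each time. Cox7a2 (chr9:79755361-79759878) ran 399, 453, 268 and 455 CPM, so it was lowest where Cox7a2l was highest. Of the UMIs of Cox7a1, Cox7a2 and Cox7a2l together, Cox7a2l held 27.4% (26.6 to 28.3), 21.6% (19.8 to 23.4), 63.3% (62.3 to 64.3) and 42.3% (40.0 to 44.7). Within clusters found at both times the Cox7a2l level was higher at 72 h in each of the 3 compared in WT, by log2 ratios of 0.97, 0.89 and 1.68, and in the 1 compared in CCR2 KO, by 1.09.

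In dendritic cell-like cells the Cox7a2l share ran 33.3%, 36.4%, 55.0% and 43.4%, again higher at 72 h in each genotype, and its level was higher by log2 ratios of 1.0 (0.68 to 1.35) for WT and 0.72 (0.50 to 0.95) for CCR2 KO. Lymphoid cells were near equal shares in all libraries, at 44.9% (34.4 to 55.9), 50.5%, 54.7% and 49.4%, and the B cell-like cells of CCR2 KO 24 h had 60.5% (51.1 to 69.3). Neutrophil-like cells had lower shares, at 31.6% (24.3 to 39.6), 20.8%, 19.1% and 16.9%. The Cox7a2l level was nonetheless higher at 72 h in neutrophil-like and lymphoid cells too. It was 66.0, 61.2, 136 and 120 CPM in neutrophil-like cells. Lymphoid cells had 310, 374, 452 and 405 CPM, the first from 40 UMIs. In neutrophil-like cells outside the Siglecf-led cluster its log2 ratio of 72 h over 24 h was 1.18 in WT and 0.86 in CCR2 KO. The members' sum had 0.51 and 0.07 there.

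**Figure D5:**
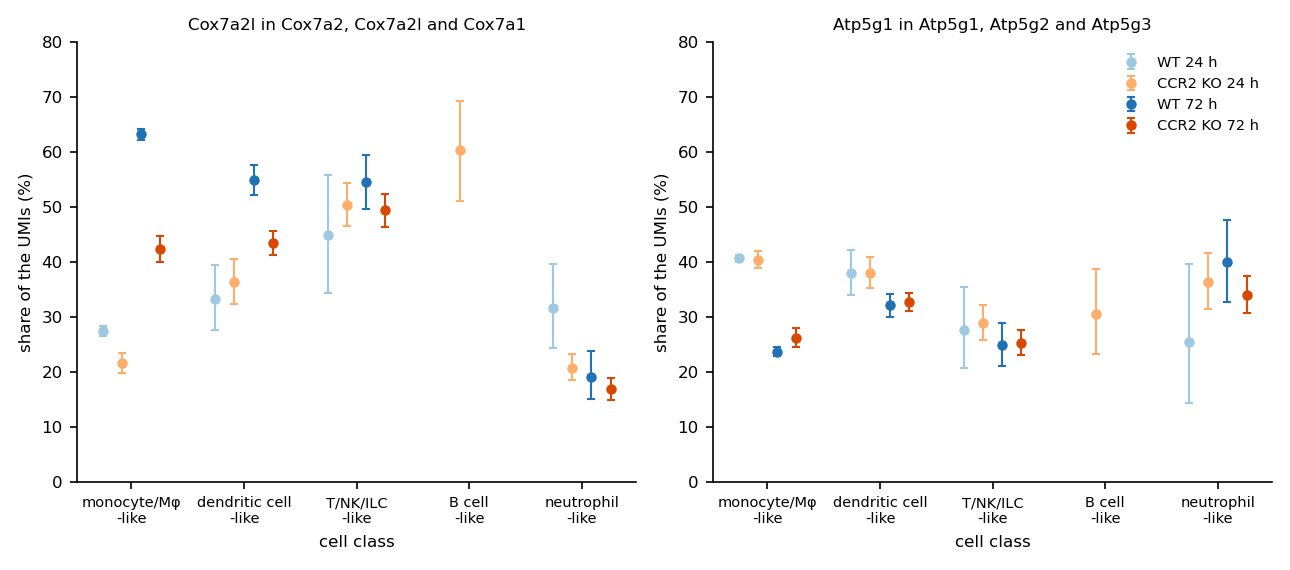
Share in percent of Cox7a2l in the UMIs of the Cox7a family and of Atp5g1 in those of the 3 c subunit genes, by class and library, with exact (Clopper-Pearson) 95% intervals. In monocyte/Mφ-like cells the Cox7a2l share is 27.4% and 21.6% at 24 h and 63.3% and 42.3% at 72 h, and the Atp5g1 share is 40.7% and 40.4% at 24 h and 23.7% and 26.2% at 72 h.

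The 3 genes of the c subunit encode the same mature protein with different import sequences. In monocyte/Mφ-like cells Atp5g1 had 481, 434, 208 and 312 CPM, or 40.7% (40.0 to 41.3), 40.4% (38.8 to 42.0), 23.7% (22.9 to 24.5) and 26.2% (24.5 to 27.9) of the UMIs of the 3 genes. Atp5g2 had 38.9%, 38.5%, 54.8% and 41.3% of them and Atp5g3 20.5%, 21.1%, 21.6% and 32.5%. So the share of Atp5g1 was lower at 72 h in both genotypes, with a larger share of Atp5g2 in WT and of Atp5g3 in CCR2 KO. Lymphoid cells had Atp5g1 shares of 27.6%, 28.9%, 24.9% and 25.3%, which lay closer together. The neutrophil-like WT 24 h value of 25.5% rests on 13 of 51 UMIs (14.3 to 39.6).

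Isoforms known from muscle, testis, lung or hypoxic cells were close to absent from these leukocytes. Cox4i2, an isoform of lung and hypoxic cells, had 9, 5, 1 and 4 UMIs, Cox8b 0, 0, 1 and 1, and Ndufa4l2 1, 0, 3 and 0. Cox6b2, the testis isoform of subunit 6b, had 74, 20, 93 and 52 UMIs, and was 0.720%, 0.453%, 1.01% and 0.900% of the Cox6b1 and Cox6b2 UMIs of monocyte/Mφ-like cells. Its share in dendritic cell-like cells was 2.33%, 1.11%, 3.6% and 2.20%. Cox7a1, the heart and muscle isoform, had 126, 27, 63 and 37 UMIs and at most 8.73 CPM in monocyte/Mφ-like cells. Cox6a2, the muscle isoform of subunit 6a, was unlike these in its distribution, since its 24, 18, 34 and 120 UMIs lay in 7, 9, 34 and 12 cells and single cells held up to 18, 8, 1 and 49 of them. These counts are over all cells, and 6, 7, 32 and 46 of the UMIs lay in cells of the 5 classes. In every library but WT 72 h, most of the Cox6a2 UMIs therefore lay in cells outside these classes. In dendritic cell-like cells of CCR2 KO 72 h, 44 of 932 UMIs of Cox6a1 and Cox6a2 came from it (4.72%, 3.45 to 6.29), from 4 cells.

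The other parts of mitochondrial energy metabolism did not all follow the members. The 13 genes encoded in mitochondrial DNA were much lower in neutrophil-like cells at both times, at 5605, 4614, 8167 and 10007 CPM against 39622, 34859, 43970 and 57662 CPM in monocyte/Mφ-like cells, and this share was also used by the authors as a filter on cells. In each library 11 or 12 of them could be compared and all of those were lower, and the log2 ratio of their sum was -2.82, -2.92, -2.43 and -2.53, further from 0 than that of the nuclear members in every library. The 4 subunits of complex II, which links the chain to the tricarboxylic acid cycle, were at 179, 171, 270 and 304 CPM against 529, 462, 509 and 633 CPM. Cytochrome c and cytochrome c1, the electron carrier and the haem subunit of complex III, were further apart at 24 h, at 17.9 and 36.2 CPM against 295 and 359 CPM, and were at 110 and 130 against 146 and 264 CPM at 72 h.

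A further 3 lists were at or above the monocyte/Mφ-like level in some libraries. The 12 assembly factors of complex IV summed to 303, 583, 536 and 715 CPM in neutrophil-like and 434, 485, 333 and 459 CPM in monocyte/Mφ-like cells, and thus were higher in all but WT 24 h. Regulators of the pathway, such as its transcription factors and coactivators, were at 261, 252, 318 and 303 CPM against 252, 220, 237 and 281 CPM. The 13 glycolysis genes were at 3071, 3084, 4121 and 4867 CPM against 6101, 5850, 2703 and 3759 CPM, lower at 24 h and higher at 72 h. Within monocyte/Mφ-like cells the glycolysis genes were lower at 72 h than at 24 h, with log2 ratios of -1.17 (-1.19 to -1.16) for WT and -0.64 (-0.68 to -0.60) for CCR2 KO.

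Genes outside the members with the pattern most like their sum were found by Pearson's correlation of log2 CPM over the 17 class and library profiles, among 3173 genes. The closest were Timm13 (r = 0.978), which serves protein import into mitochondria, Mrps14 (0.978), a protein of the mitochondrial ribosome, Ddost (0.977), a subunit of the enzyme that glycosylates proteins in the endoplasmic reticulum, Tmem160 (0.977) and Ola1 (0.976). The 17 profiles come from 4 libraries and share depth and handling within each, and the correlation largely carries the gap between neutrophil-like and other classes, so it is given as a description.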

How the data were processed

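Single cell RNA-seq had been performed on CD45+ cells sorted from the small-intestinal muscularis, with 1 library per group as the labels give it. The authors deposited raw UMI counts for each gene and cell. The authors prepared the libraries with 10x Genomics 3' chemistry, counted UMIs with Cell Ranger 3.0.2 on GRCm38 and kept cells with at least 200 genes and at most 10% mitochondrial UMIs in Seurat, so the mitochondrially encoded share was bounded beforehand. Depth was 9736725 to 21206308 UMIs per library.

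Cells were classed here by the mean log level of marker lists (UMIs scaled to 10000 per cell), needing a score of 0.25, a margin of 0.1 over the next class and 2 markers with a UMI. The last minimum was added after the score distributions of shallow cells were seen and before the members were summed. Doublets were treated with Scrublet at an expected rate of 5%, which called 10 of 5811 cells (0.172%), too few to rely on. Whether doublets had been removed before deposit is not given in the sources used here. No cell was removed for it, and an alternative removed the 256 cells in the top 5% of its scores. The members, gene lists and comparisons were chosen with earlier results of these data known. UMIs were summed per class and library, given as CPM with exact Poisson 95% intervals, and compared as log2 ratios with exact counting intervals and a pseudocount of 0.5 UMIs per gene. Shares have exact Clopper-Pearson intervals. No test was run, since each group is 1 library. The counting of genes past the fold was checked on simulated counts. Clusters came from Leiden clustering (resolution 1, 2000 variable genes without the members, 30 components, 20 neighbours). A cell was called dividing with at least 2 UMIs of dividing-cell genes that also made up at least 2 per 1000 of its UMIs.

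Genes were named by rule: the 3 members with the highest mean CPM of each complex, the 4 furthest each way by the mean ratio of neutrophil-like to monocyte/Mφ-like cells, the 3 furthest each way in each other main comparison, all members of isoform groups, and the 5 genes closest in pattern to the members' sum (of genes with a mean of at least 50 CPM over the profiles and at least 200 UMIs). Members named beyond this, in the neutrophil-like comparison of times, the clusters and the other classes, were chosen after their values were seen. Atp5o.1 is a name made unique in the count tables, 2 annotated genes are called Atp5o, and its identity is uncertain. The other 85 members matched 1 gene each in GENCODE vM21. Members with near-identical copies elsewhere in the genome could lose reads in the authors' counting, so their levels are uncertain. Promoters are from RefSeq. Tools were Python 3.11.15, numpy 2.4.6, scipy 1.17.1, pandas 2.3.3, scanpy 1.11.5, leidenalg 0.10.2, matplotlib 3.10.9, R 4.3.3 and edgeR 4.0.16 (TMM factors only).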

Additional observations from a re-analysis of the deposited data

Results flagged for a closer look

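In monocyte/Mφ-like cells the class sums of the 2 genotypes differed in opposite directions at the 2 times. The summed log2 ratio of CCR2 KO over WT was -0.11 at 24 h and 0.35 at 72 h. Likewise the ratio of 72 h over 24 h was -0.29 in WT and 0.16 in CCR2 KO, and the second of these changed sign under TMM scaling. In the only cluster compared at both times, led by Lilra5, CCR2 KO was above WT at each, by 0.12 and 0.44. The 4 ratios of the class sums come from the same 4 libraries and so hold a single contrast between them. With 1 library per group the difference between the times or genotypes was not tested.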

How the results depend on the processing

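The 7 ratios and the matching numbers of members past the fold were recomputed under 138 alternatives in all. Of these, 70 stayed within the counting interval (ratios) or within 1.5 times the count, and 68 moved. A reversal could be called only for ratios of at least 1.5-fold, and 0 of those reversed. The monocyte/Mφ-like ratios lay below that fold and could not be called so. Numbers of members were compared as totals without direction. The turn of the calls in CCR2 KO monocyte/Mφ-like cells over time under TMM scaling is therefore among those that stayed. Of the 103 recomputed ratios 1 had another sign than the reported value, that of monocyte/Mφ-like cells between the times in CCR2 KO. The settings on the marker minimum, the top Scrublet scores, cells of 2000 to 8000 UMIs, left-out clusters, TMM scaling of the counts past the fold, and all those for neutrophil-like cells over time were chosen after seeing the data. No paired analysis was possible because each group is 1 library.

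For neutrophil-like over monocyte/Mφ-like cells (-0.96) the mean was -0.94 with Leiden classes, -0.80 as a mean of single-cell CPM, -0.79 after thinning to 1000 UMIs, -0.93 without the 50 most abundant genes in the denominator, -0.60 with TMM scaling, -1.34 without a marker minimum, -0.69 in cells of 2000 to 8000 UMIs and -1.42 without the Siglecf-led cluster.

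For CCR2 KO over WT monocyte/Mφ-like cells at 24 h (-0.11) the ratio was -0.17 as a single-cell mean, -0.19 thinned, -0.092 without the 50 genes, -0.20 with TMM scaling and -0.38 in cells of 2000 to 8000 UMIs. At 72 h (0.35) it was 0.37 with a stricter margin, 0.41 at 5% mitochondrial UMIs or less, 0.24 as a single-cell mean, 0.23 thinned, 0.26 without the 50 genes, 0.076 with TMM scaling, 0.36 for subunits only, 0.27 without dividing cells, 0.33 without the top Scrublet scores, 0.17 in cells of 2000 to 8000 UMIs and 0.24 without the Col3a1-led cluster and clusters of another class.

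For 72 h over 24 h in WT monocyte/Mφ-like cells (-0.29) it was -0.31 with Leiden classes, -0.21 without the 50 genes, -0.37 with TMM scaling, -0.32 for subunits only, -0.30 without dividing cells, -0.31 without a marker minimum, -0.28 with 3 markers, -0.23 in cells of 2000 to 8000 UMIs and -0.21 without the Col3a1-led and other clusters. In CCR2 KO (0.16) it was 0.14 with Leiden classes, 0.23 at 5% mitochondrial UMIs or less, 0.12 as a single-cell mean, 0.12 thinned, 0.14 without the 50 genes, -0.10 with TMM scaling, 0.071 without dividing cells, 0.19 with 3 markers, 0.14 without the top Scrublet scores, 0.32 in cells of 2000 to 8000 UMIs and 0.14 without the Col3a1-led and other clusters.

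For 72 h over 24 h in neutrophil-like cells the WT ratio (1.26) was 1.14 without the 50 genes, 0.69 with TMM scaling, 0.70 without a marker minimum and 0.51 without the Siglecf-led cluster. The CCR2 KO ratio (1.01) was 1.04 with Leiden classes, 1.08 as a single-cell mean, 1.10 thinned, 0.99 without the 50 genes, 0.47 with TMM scaling and also 0.47 without a marker minimum, 1.15 in cells of 2000 to 8000 UMIs and 0.070 without the Siglecf-led cluster.

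The number of members past the fold for CCR2 KO over WT at 24 h (0) was 5 with no minimum level, 12 at a difference of 25% or more of the lower value and 2 with TMM scaling. At 72 h (20) it was 43 at 25% or more, 2 at 2-fold and 5 with TMM scaling (4 upward and 1 downward). For WT over time (16) it was 45, 3 and 26 in the same order, and for CCR2 KO over time (9) it was 23 at 25% or more, 1 at 2-fold and, with TMM scaling, 7 (2 upward and 5 downward, against 7 and 2). In CCR2 KO neutrophil-like cells (68) it was 41 with TMM scaling.

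The cause of these moves was not tested. Counting intervals do not hold the spread between mice, which 1 pooled library per group cannot show, and a class sum cannot tell a change in each cell from a change in the cells that make up the class.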
